A study of Mus musculus with 2 samples.

Results

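The genes described here are 43 genes of DNA replication, of 27321 gene identifiers in the deposited gene tables, and each was found by the mouse symbol of its Ensembl identifier. They encode the replicative helicase (Mcm2 to Mcm7), helicase loading and activation factors (Cdc6, Cdt1, Cdc45, Gins1, Gins2, Gins3, Mcm10), polymerases and primase (Pola1, Pola2, Prim1, Prim2, Pold1, Pold2, Pold3, Pole, Pole2), and the sliding clamp with its loader (Pcna, Rfc1 to Rfc5). The other members are the single-strand binding proteins (Rpa1, Rpa2, Rpa3), the Okazaki fragment enzymes (Fen1, Lig1), nucleotide supply (Rrm1, Rrm2, Tyms, Tk1, Dut), chromatin assembly and DNA methylation (Chaf1a, Chaf1b, Uhrf1, Dnmt1) and the histone mRNA binding protein Slbp.

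The cells were mouse muscle stem cells sorted on YFP from Pax7creERT2 R26-eYFP fl/fl animals on a C57BL6 background, aged 3 months. Cre is under Pax7 in these animals, so YFP marks cells that expressed Pax7 when tamoxifen was given and their progeny. All animals received 100 µL of tamoxifen at 20 mg/ml daily for 5 days. Activated cells came from lower hindlimb muscle 72 h after intramuscular injection of 40 µL of 1.2% barium chloride, and quiescent cells came from uninjured muscles. Both kinds of cell entered 1 droplet capture with 3′ chemistry, and the droplets were then divided into a 10% aliquot, sequenced with short and long reads, and a 90% aliquot, sequenced with short reads. No label gives the origin of a cell, so activated and quiescent cells cannot be told apart by label, and there was no replicate of either aliquot.

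Barcodes were therefore compared by depth and by 3 mitotic genes. Low barcodes held 3000 to 15000 UMIs (unique molecular identifiers, each counting a captured RNA molecule) with 0 UMIs of Top2a, Cdk1 and Mki67. Deep barcodes held at least 20000 UMIs, whatever their mitotic genes. The 10% table gave 167 low barcodes with a median of 6808 UMIs and 79 deep barcodes with a median of 65499. The 90% table gave 1319 low barcodes with a median of 4716 UMIs and 606 deep barcodes with a median of 47106. A barcode is not shown to be a whole cell of either origin, and the low class excludes cells with mitotic RNA by construction.

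The 2 tables were not separate sets of barcodes. Of the 167 low barcodes of the 10% table, 164 held at least 3000 UMIs under the same sequence in the 90% table, and all 79 deep barcodes did so. The expression profile of a low barcode correlated with its own sequence in the other table at a median of 0.929, against 0.701 with other low barcodes, and 158 of the 164 were closest to their own. For deep barcodes the medians were 0.962 and 0.804, and 79 of 79 were closest to their own. The tables are accordingly not independent measurements. The main counts, medians and shares are also given with shared barcodes left out, which removed 159 low and 90 deep barcodes from the 90% table, leaving 1160 and 516. From the 10% table it removed only the 9 low barcodes that were deep in the 90% table, leaving 158 low and 79 deep barcodes, so that the values of the 10% table given in this way still rest almost wholly on barcodes that the 90% table also holds.

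The markers of muscle stem cells were present in both classes. Myod1, a myogenic transcription factor, stood at 1109 CPM (UMIs of a gene per 1000000 UMIs of the class) in low and 185 in deep barcodes of the 10% table, and at 1045 and 213 in the 90% table. Pax7 stood at 26.1 and 12.2 CPM in the 10% table and at 19.5 and 7.80 in the 90% table. Of the 11 muscle stem cell markers, Des (272 and 323 in the 10% table, 302 and 408 in the 90% table), Itga7 (32.0 and 58.4, 39.4 and 64.7) and Cdh15 (29.5 and 57.3, 37.5 and 57.1) were higher in deep barcodes and the other 8 lower. Their summed level ranged from 2672 to 2990 CPM in low and from 762 to 920 in deep barcodes. The summed level of 8 markers of committed myoblasts was 48.9 in low and 98.8 in deep barcodes of the 10% table. It was 127 and 191 in the 90% table. Of these markers, Acta1 was lower in deep barcodes (27.0 and 10.4 in the 10% table, 46.5 and 17.0 in the 90% table). Tnnt1 differed little (11.8 and 9.41, 21.4 and 22.4), and the remaining markers were higher in both tables. Mymx, Myh3 and Tnnt2 stood at 0 in the low barcodes of the 10% table. The 10 immune markers together reached 120 and 112 CPM in the 10% table and 338 and 6.73 in the 90% table, with Ptprc, Coro1a and C1qa at 0 in the low barcodes of the 10% table. The 6 fibro-adipogenic markers reached 176 and 76.1 in the 10% table and 270 and 50.2 in the 90% table, with Pdgfra at 0 in the low class of both. A barcode of at least 1000 UMIs with UMIs of at least 4 of the immune markers and no UMI of Myod1, Pax7 and Des is called immune-like below. Apart from leaving out such barcodes, the part of these other cells in the results below was not tested.

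DNA replication begins when a ring of Mcm2 to Mcm7 is loaded onto origins by the origin recognition complex with Cdc6 and Cdt1, and is then opened for unwinding with Cdc45 and the GINS proteins. Primase starts each new strand, the polymerases extend it while held by the Pcna clamp, and the flap nuclease and ligase join the fragments of the lagging strand. Many of these genes are transcribed under E2F factors as cells leave rest, and quiescent muscle stem cells are known to enter the cycle after injury.

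Of the 43 genes, 42 had at least 20 UMIs over both classes in each table, and 37 of these 42 were at least 2-fold higher in CPM in deep than in low barcodes of both tables. Over all genes that met the same minimum, 24.7% were at least 2-fold higher in both tables and 12.9% at least 2-fold lower, and none of the 42 was at least 2-fold lower. The median log2 ratio over the 42 was 2.33 in the 10% table and 3.32 in the 90% table, beside 0.32 and 0.33 over all genes tested. With shared barcodes left out, 35 of 42 passed, beside 24.4% of all genes, and the medians were 2.49 and 3.29. Leaving out immune-like barcodes gave 37 of 42, beside 25.1% of all genes, and medians of 2.38 and 3.41. With every barcode of 3000 to 15000 UMIs taken as low, whatever its mitotic genes, 36 of 42 passed, beside 22.2% of all genes, and the medians were 2.09 and 2.47. Single ratios depended more on these choices. Taking every barcode of 3000 to 15000 UMIs as low made the ratio smaller by over 1.5-fold for 23 of 43 members in the 90% table and for 7 of the 37 with low UMIs in both settings in the 10% table, and larger by as much for none of these. Leaving out shared barcodes made it larger by over 1.5-fold for 11 of 34 such members in the 10% table, where 9 barcodes were dropped, and for 1 of 42, Pold1, in the 90% table. The 5 tested genes that missed a ratio of 2 in a table were Mcm7, Pola1, Pold1, Pold3 and Slbp. All intervals given here are 95% intervals for counting error only, since 1 capture gives no spread between animals, and a class sum does not separate how many barcodes carry a gene from how much each carries. Genes with 0 UMIs in the low class have a ratio computed against 3 UMIs in that class, written as "at least" and called a lower bound. It limits the low count only, and the 95% counting intervals of such members in the 10% table reach below it. Among called members with 0 low UMIs there, the intervals of Cdc6 and Pole2 also reach below 2.

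**Figure D1:**
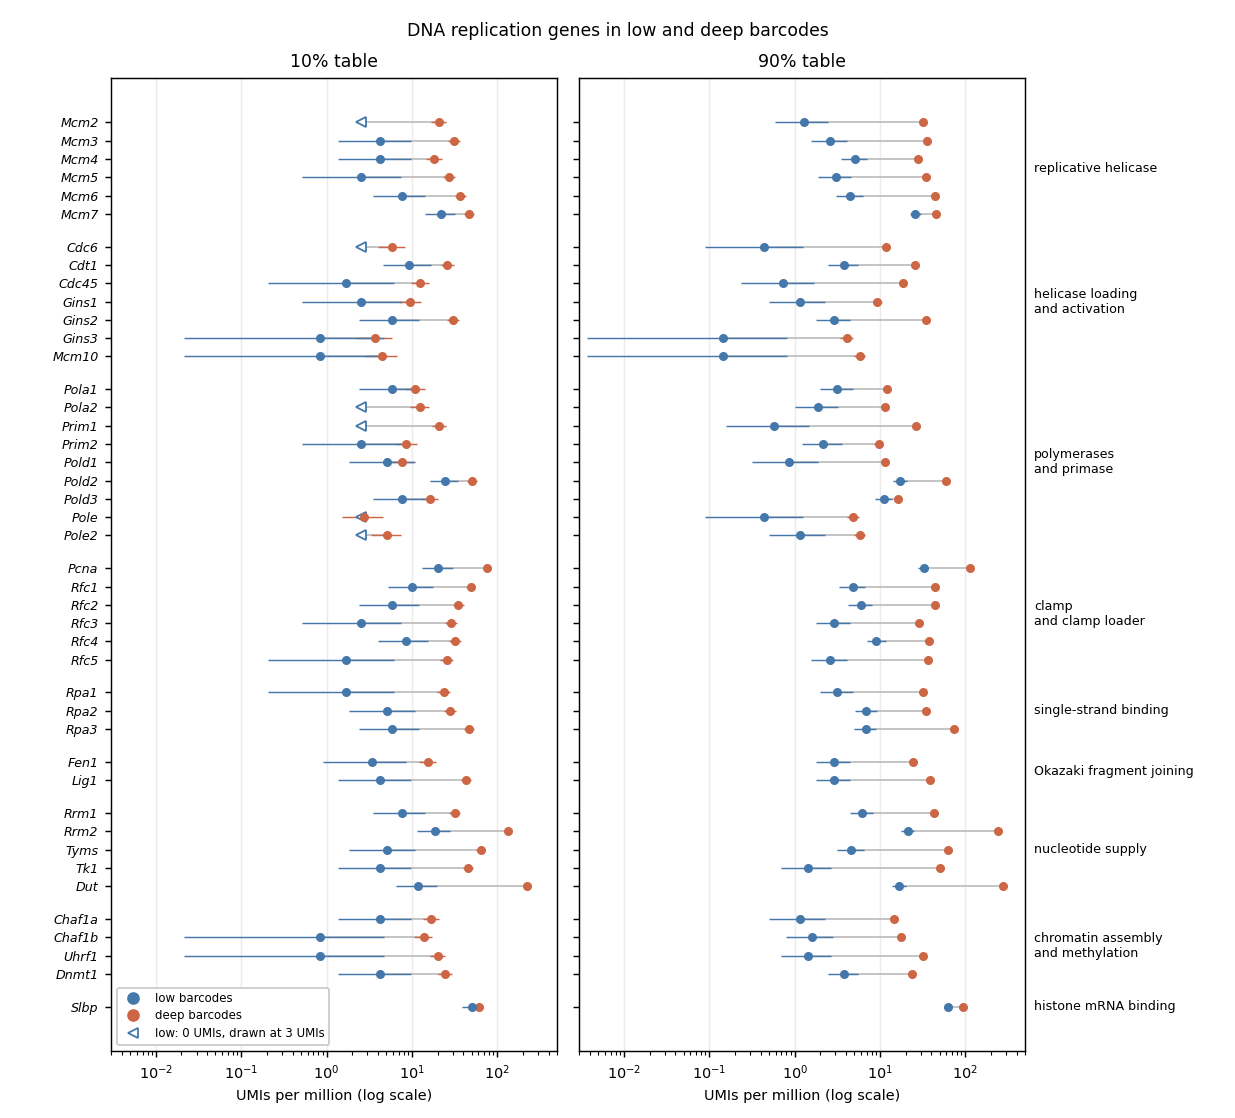
CPM (log axis) of the 43 DNA replication genes, summed over low (blue) and deep (red) barcodes of the 10% table (left) and the 90% table (right), grouped by role. Lines are 95% exact counting intervals and open triangles mark genes with 0 UMIs in the low class, drawn at 3 UMIs. The deep point lies to the right of the low point in both tables for most genes, and in the 90% table the closest pairs are Pold3, at 11.1 and 16.4, and Slbp, at 62.1 and 93.3.

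The helicase subunits Mcm2 to Mcm6 passed a ratio of 2 in both tables, and Mcm7 did not. Mcm2 had 0 UMIs in the low and 105 in the deep barcodes of the 10% table, at least 8.14-fold higher. In the 90% table Mcm2 stood at 1.30 CPM in low and 32.3 in deep barcodes, a ratio of 24.8 (13.0 to 54.5), the largest of the 6 subunits there. Mcm5 was 10.9-fold higher (3.64 to 53.3, from 3 low UMIs) in the 10% table and 11.4-fold (7.42 to 18.5) in the 90% table. The ratio of Mcm5 was 31.1 in the 10% table with shared barcodes left out, and with every barcode of 3000 to 15000 UMIs as low it was 5.82 and 5.61 in the 10% and 90% tables. Mcm7 had the smallest ratios, 2.13 (1.42 to 3.33) from 21.9 to 46.7 CPM and 1.75 (1.49 to 2.05) from 25.8 to 45.2. The products of these genes form 1 ring, but in low barcodes Mcm7 alone gave 179 of the UMIs of the 90% table, while Mcm2 gave 9 and Mcm6 gave 31. In deep barcodes the same genes gave 1349, 964 and 1325 UMIs.

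All 7 helicase loading and activation genes passed in both tables, from low counts under 30 UMIs. Cdc6, which loads the helicase, had 0 low and 30 deep UMIs in the 10% table, at least 2.33-fold higher. In the 90% table Cdc6 had 3 low and 350 deep UMIs, a ratio of 27.1 (9.18 to 132). Cdt1, its loading partner, had ratios of 2.81 (1.52 to 5.77) and 6.81 (4.61 to 10.5). Cdc45, a subunit of the active helicase, had ratios of 7.44 (1.98 to 62.8) and 26.1 (11.1 to 80.7). Mcm10 and Gins3 each had 1 low UMI in each table. The ratio of Mcm10 was 5.35 (0.869 to 220) in the 10% table and 39.9 (7.06 to 1584) in the 90% table, so that the first interval reaches below 1. That of Gins3 was 4.42 (0.702 to 184) and 28.3 (4.98 to 1126). With shared barcodes left out, Gins3 had a ratio of 4.22 in the 10% table and 0 low UMIs in the 90% table, at least 8.51-fold higher. In the same setting Mcm10 had 0 low UMIs in the 10% table and was at least 1.70-fold higher there, which is below the ratio of 2. With every barcode of 3000 to 15000 UMIs as low, the ratio of Mcm10 was 1.15 in the 10% table and 7.16 in the 90% table.

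Sites of the E2F type, in fixed letters, were searched upstream of these genes, because E2F factors are known to act on many of them. The RefSeq promoter table (build GRCm38.p6, 250 bases before and 50 after each start) held 37 of the 43 genes, without Gins1, Gins2, Mcm4, Pole, Prim2 and Rfc2. The letters TTTCCCGC, TTTCGCGC, TTTGCCGC or TTTGGCGC stood on either strand in 15 of these 37 genes (40.5%) and in 2.60% of the 27025 genes of the table. The 15 genes were Cdc6, Cdt1, Dnmt1, Gins3, Lig1, Mcm3, Mcm5, Mcm6, Mcm7, Pola1, Pold1, Pold3, Pole2, Rfc3 and Uhrf1. Their 22 matches lay from position -219 to position 39 counted from the start base as 0, and 12 were upstream of it. Matches on opposite strands can share bases, as around position -149 in Mcm5 and position -106 in Mcm6. The 250 bases upstream of a start are printed for some members, 5′ to 3′ on the strand of the gene, with the matched letters in capitals. The printed members do not follow the order of the ratios, and most hold a match, while 22 of the 37 hold none. Prim1, Mcm10, Tk1 and Mcm2, with large ratios in the 90% table, hold no match and are not printed. Mcm5 lies at chr8:75109259-75109508 (+), Mcm6 at chr1:128359706-128359955 (-), Mcm7 at chr5:138171884-138172133 (-) and Cdc6 at chr11:98907901-98908150 (+). Gins3 lies at chr8:95633309-95633558 (+), Pola1 at chrX:93632156-93632405 (-), Dut at chr2:125247265-125247514 (+) and Slbp at chr5:33652575-33652824 (-). The last pair, the member with the most UMIs in deep barcodes and the tested member with the smallest ratio in the 10% table, hold no match.
Mcm5: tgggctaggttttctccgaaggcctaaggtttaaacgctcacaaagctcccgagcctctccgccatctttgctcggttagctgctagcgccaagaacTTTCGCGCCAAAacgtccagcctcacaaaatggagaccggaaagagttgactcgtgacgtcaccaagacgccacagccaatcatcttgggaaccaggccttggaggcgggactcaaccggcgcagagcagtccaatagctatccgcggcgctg
Mcm6: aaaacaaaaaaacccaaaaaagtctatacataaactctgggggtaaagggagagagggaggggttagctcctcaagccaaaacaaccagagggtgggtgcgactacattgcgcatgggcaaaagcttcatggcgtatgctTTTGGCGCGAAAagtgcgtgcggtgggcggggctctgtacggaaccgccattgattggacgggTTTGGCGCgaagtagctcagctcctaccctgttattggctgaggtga
Mcm7: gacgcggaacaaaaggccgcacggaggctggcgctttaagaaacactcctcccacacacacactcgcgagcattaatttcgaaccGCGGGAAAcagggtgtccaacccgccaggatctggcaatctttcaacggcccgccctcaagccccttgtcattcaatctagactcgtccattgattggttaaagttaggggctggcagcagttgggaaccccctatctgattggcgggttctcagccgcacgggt
Cdc6: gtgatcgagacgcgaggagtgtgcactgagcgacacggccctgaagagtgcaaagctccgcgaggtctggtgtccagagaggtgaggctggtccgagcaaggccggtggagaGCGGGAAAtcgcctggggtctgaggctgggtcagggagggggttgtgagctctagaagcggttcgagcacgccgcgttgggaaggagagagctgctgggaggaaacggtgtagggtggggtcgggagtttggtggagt
Gins3: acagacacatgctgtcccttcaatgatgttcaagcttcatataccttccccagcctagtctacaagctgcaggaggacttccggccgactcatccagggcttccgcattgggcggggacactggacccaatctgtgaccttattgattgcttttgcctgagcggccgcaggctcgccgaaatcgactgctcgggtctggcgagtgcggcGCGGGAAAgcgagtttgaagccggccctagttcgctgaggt
Pola1: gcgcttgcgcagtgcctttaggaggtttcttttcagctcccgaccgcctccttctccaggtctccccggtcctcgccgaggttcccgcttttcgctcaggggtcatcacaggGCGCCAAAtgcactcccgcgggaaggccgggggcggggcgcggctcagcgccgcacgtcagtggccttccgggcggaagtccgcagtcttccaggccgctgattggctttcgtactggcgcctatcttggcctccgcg
Dut: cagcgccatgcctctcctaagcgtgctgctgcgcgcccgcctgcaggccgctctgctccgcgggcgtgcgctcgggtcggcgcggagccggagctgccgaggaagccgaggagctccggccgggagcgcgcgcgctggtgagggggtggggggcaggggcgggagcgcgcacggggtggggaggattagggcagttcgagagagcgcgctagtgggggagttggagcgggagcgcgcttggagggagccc
Slbp: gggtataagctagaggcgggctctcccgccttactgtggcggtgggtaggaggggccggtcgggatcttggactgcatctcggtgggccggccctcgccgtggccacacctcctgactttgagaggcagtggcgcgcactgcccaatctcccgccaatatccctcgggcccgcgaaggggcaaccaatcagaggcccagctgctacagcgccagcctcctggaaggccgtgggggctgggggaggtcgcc

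Genes with and without such letters were then set side by side. The 15 genes with a match had median log2 ratios of 2.14 and 3.31 in the 10% and 90% tables, and the 22 without a match had 2.66 and 3.45. Of the 5 tested genes that missed a ratio of 2 in a table, Mcm7, Pola1, Pold1 and Pold3 hold a match and Slbp holds none. Dut and Rrm2, with large ratios, hold none in this window. Other letters were closer to their share in all genes. TTTGAA stood in 16.2% of the 37 members and 20.2% of all genes, TATAAA in 8.11% and 15.7%, and CCAAT in 62.2% and 41.1%. The upstream 250 bases had a median GC content of 61.2% over the 45 windows of the members and 52.4% over all 32851 windows. A match here is a run of letters in a window and not a measured site of binding.

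Among the polymerases and primase, 5 of 8 tested genes passed and the extremes lay far apart. Prim1, the small primase subunit, had 0 low and 107 deep UMIs in the 10% table, at least 8.29-fold higher. In the 90% table Prim1 had 4 low and 797 deep UMIs, 0.577 and 26.7 CPM, a ratio of 46.2 (18.0 to 170) that was the largest of all members there. With every barcode of 3000 to 15000 UMIs as low, the ratio of Prim1 in the 90% table was 11.7, and that of Tk1, at 16.5, was the largest. Pole, the catalytic subunit of polymerase epsilon, had 0 low and 14 deep UMIs in the 10% table, below the minimum, and 3 low and 146 deep UMIs in the 90% table, a ratio of 11.3 (3.79 to 55.4). The remaining genes of this role differed between the tables. Pold1, the catalytic subunit of polymerase delta, had ratios of 1.51 (0.635 to 4.37) and 13.1 (5.96 to 36.0), from 6 low UMIs in each table. Pola1, the catalytic subunit of polymerase alpha, had ratios of 1.86 (0.846 to 4.84) and 3.83 (2.49 to 6.18). Pold3, an accessory subunit of polymerase delta, had ratios of 2.14 (1.08 to 4.85) and 1.48 (1.16 to 1.90), the smallest of the role in the 90% table. The accessory subunits Pola2 and Pole2 had 0 low UMIs in the 10% table, at least 4.88-fold and at least 2.02-fold higher, and ratios of 6.06 and 5.04 in the 90% table. The bound of Pole2 was 1.93 with shared barcodes left out. The large primase subunit Prim2 (3.41 and 4.47) and Pold2 (2.07 and 3.46) passed as well.

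All 6 clamp and clamp loader genes, all 3 single-strand binding genes and both Okazaki fragment genes passed. Pcna, the clamp, stood at 20.2 CPM in low and 76.5 in deep barcodes of the 10% table and at 32.3 and 114 in the 90% table. Its ratios of 3.78 (2.50 to 5.97) and 3.52 (3.07 to 4.05) were the smallest of the role in both tables. Rfc5, a loader subunit, had the largest, at 15.2 (4.13 to 127, from 2 low UMIs) and 14.1 (8.85 to 23.8). In the 10% table this order rested on few UMIs, since Rfc3 was larger with shared barcodes left out, at 32.4 against at least 9.70 for Rfc5, and with every barcode of 3000 to 15000 UMIs as low, at 12.1 against 10.9. The large single-strand binding subunit Rpa1 had ratios of 14.0 (3.78 to 117, from 2 low UMIs) in the 10% table and 10.0 (6.6 to 16.1) in the 90% table. Rpa2 was lowest of its complex with 5.58 (2.50 to 15.5) and 4.99 (3.73 to 6.81), and Rpa3 had 7.91 and 10.8. The flap nuclease Fen1 had ratios of 4.53 (1.70 to 17.1) and 8.41 (5.40 to 13.8), and the ligase Lig1 of 10.1 (4.28 to 31.5) and 13.3 (8.54 to 21.8).

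The 5 genes of nucleotide supply passed in both tables and held the most UMIs of the deep class. Dut, which breaks down dUTP, stood at 11.8 CPM in low and 225 in deep barcodes of the 10% table, a ratio of 19.1 (11.3 to 35.0). In the 90% table Dut stood at 16.9 and 277, a ratio of 16.4 (13.7 to 19.9). Rrm2, the small subunit of ribonucleotide reductase, had ratios of 7.18 (4.70 to 11.5) and 11.4 (9.69 to 13.5), and its partner Rrm1 of 4.16 (2.14 to 9.26) and 6.98 (5.15 to 9.69). Both subunits were higher in deep barcodes, and Rrm1 had the smallest ratio of the 5 genes in both tables. The thymidine kinase Tk1 had ratios of 10.8 (4.58 to 33.7) and 35.2 (19.1 to 73.6), from 5 and 10 low UMIs, and the thymidylate synthase Tyms of 12.6 and 13.7. With shared barcodes left out, the ratio of Tk1 was 51.8 and that of Dut 28.3 in the 10% table, and 29.6 and 15.1 in the 90% table.

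The 4 chromatin genes passed, and Slbp did not. Uhrf1, which brings the maintenance methyltransferase to new DNA, had ratios of 24.0 (4.2 to 955, from 1 low UMI) and 22.3 (12.1 to 46.6), the largest of the 4 in both tables. Dnmt1, the maintenance methyltransferase, had 5.81 (2.43 to 18.2) and 6.38 (4.32 to 9.83), and the chromatin assembly subunit Chaf1a had 3.95 (1.63 to 12.5) and 12.5 (6.27 to 29.1). Its partner Chaf1b had 16.3 (2.83 to 652, from 1 low UMI) and 11.1 (6.15 to 22.4). Slbp stood at 50.6 CPM in low and 61.6 in deep barcodes of the 10% table, a ratio of 1.22 (0.921 to 1.63), and at 62.1 and 93.3 in the 90% table, a ratio of 1.5 (1.36 to 1.67). Slbp was the member with the most UMIs in low barcodes, 17.8% of all member UMIs there in the 10% table and 21.4% in the 90% table, and 4.25% and 5.04% in deep barcodes. Dut took the opposite course, from 4.15% and 5.81% of member UMIs in low to 15.5% and 15.0% in deep barcodes.

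Summed over the 43 genes, members made up 0.0284% (0.0255 to 0.0316) of the UMIs of low and 0.145% (0.142 to 0.148) of those of deep barcodes in the 10% table. The shares in the 90% table were 0.0291% (0.0278 to 0.0304) and 0.185% (0.184 to 0.187). With shared barcodes left out, the low share was 0.0234% in the 10% table and 0.0299% in the 90% table, where the deep share was 0.188%. In single barcodes the median share was 0.0210% in low and 0.126% in deep barcodes of the 10% table and 0.0212% and 0.169% in the 90% table. The classes overlapped at their edges. Of the low barcodes, 4 of 167 and 8 of 1319 lay above the median deep barcode, and of the deep barcodes 2 of 79 and 7 of 606 lay below the median low barcode. The 5% of low barcodes with the most member UMIs, ranked without regard to depth, held 29.1% of the low class's member UMIs in the 10% table. In the 90% table they held 27.4%. In the 10% table, 9 low barcodes were deep in the 90% table under the same sequence, and these gave 72 of the 337 low member UMIs.

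Deep barcodes were split by whether they held a UMI of Top2a, Cdk1 or Mki67. This split depends on depth, and barcodes were not thinned for it. Barcodes with such a UMI had a median of 68546.5 UMIs and those without 35596 in the 10% table. In the 90% table the medians were 48761.5 and 42301.5. Those with such a UMI had a member share of 0.163% (0.160 to 0.167, 60 barcodes) in the 10% table and 0.209% (0.207 to 0.210, 474 barcodes) in the 90% table. Those without had 0.0554% (0.0506 to 0.0606, 19 barcodes) and 0.0829% (0.0805 to 0.0853, 132 barcodes), which lay above the low class in both tables. Immune-like barcodes, as defined above, had 0.0313% (0.0167 to 0.0535, 4 barcodes) and 0.0263% (0.0181 to 0.0370, 15 barcodes), close to the low class. However, 1 of the 4 in the 10% table and 9 of the 15 in the 90% table were themselves low barcodes. A further 1 of the 4 was a deep barcode, so these groups overlap.

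**Figure D2:**
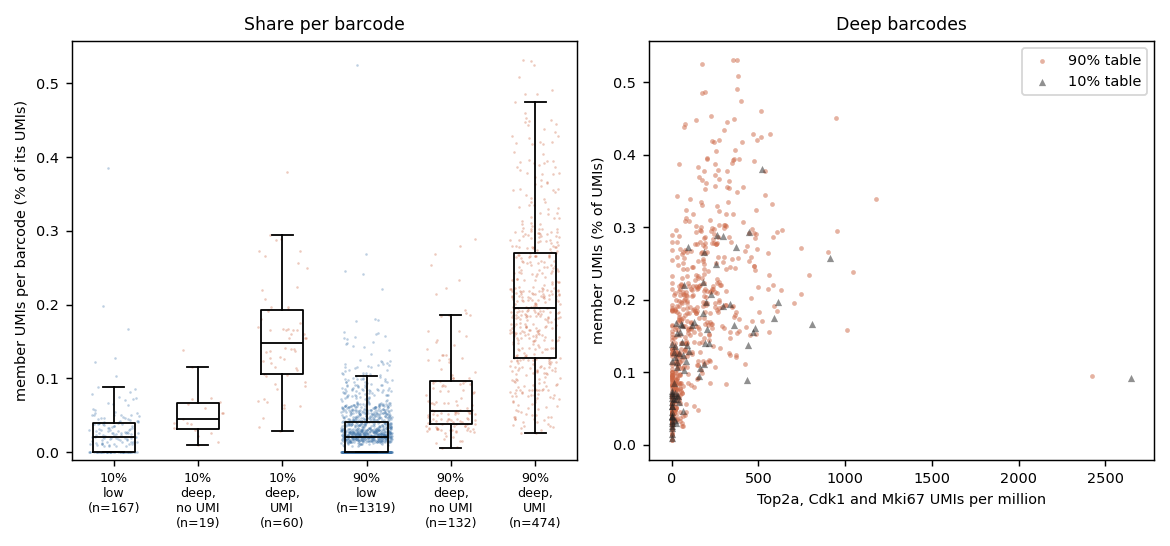
Left, the share of a barcode's UMIs (%) that came from the 43 genes, with points for barcodes, boxes for quartiles and whiskers to 1.5 times the box height, for low barcodes and for deep barcodes without and with a UMI of Top2a, Cdk1 or Mki67 in each table. Right, the same share in deep barcodes against CPM of the 3 mitotic genes together. The median share was 0.0210% and 0.0212% in low barcodes, and deep barcodes without a mitotic UMI lay between the low and the other deep barcodes.

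Because detection depends on depth, every barcode was thinned at random to 3000 UMIs before counting those with a UMI of each gene. The median over the 43 genes was then 1.20% of low and 6.33% of deep barcodes in the 10% table and 0.682% and 8.09% in the 90% table. Without thinning the medians were 2.40% and 55.7% in the 10% table and 1.14% and 59.2% in the 90% table. Another random thinning gave 0.599% and 7.59% in the 10% table and 0.758% and 8.25% in the 90% table, and leaving out shared barcodes gave 0.633% and 6.33%, and 0.776% and 8.14%. The low median of the 10% table thus rests on 1 or 2 barcodes a gene. The thinned share was higher in deep barcodes for 40 of 43 genes in the 10% table, with Gins3, Pola1 and Pold1 as the exceptions, and for 43 of 43 in the 90% table. The counting intervals of the shares were apart for 10 genes in the 10% table and for 41 in the 90% table, where those of Pold3 and Slbp overlapped. These counts were made for the members only. How many of all genes would be higher or apart in the same way was not tested, so the counts have no background share. Dut was detected in 2.40% of low and 36.7% of deep barcodes of the 10% table and in 3.18% and 48.7% in the 90% table. Slbp was detected in 14.4% and 16.5% of barcodes of the 10% table and in 16.8% and 21.9% in the 90% table. Prim1 was detected in 0 of 167 low barcodes of the 10% table, which allows a share of up to 1.80% by the limit of 3 counts and 2.18% by the exact interval, and in 2.53% of deep barcodes. In the immune-like barcodes of at least 3000 UMIs, 2 in the 10% and 11 in the 90% table, the median over the 43 genes was 0. So few barcodes cannot set them apart from either class. A gene seen in 0 of 11 could have a share of up to 27.3% by the limit of 3 counts and 28.5% by the exact interval. For 0 of 2 the exact bound is 84.2%.

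Of 40 other genes that act in replication, 36 met the minimum count, and 23 were at least 2-fold higher and 2 at least 2-fold lower in deep barcodes of both tables. The background shares over all genes were 24.7% and 12.9%. Both this list and the cycle regulators were chosen with earlier results of these data known. Pclaf, a clamp-binding protein, had ratios of 32.5 (14.9 to 88.9) and 30.5 (23.4 to 40.5), and the histone chaperone Asf1b had 28.6 (5.04 to 1139, from 1 low UMI) and 43.4 (18.5 to 134). Gmnn, which blocks Cdt1, had 26.7 (7.32 to 222, from 2 low UMIs) and 25 (14.6 to 47.1). Subunits of the same polymerase lay on both sides of 1. Pold4, the small subunit of polymerase delta, stood at 288 CPM in low and 31.0 in deep barcodes of the 10% table and at 285 and 31.6 in the 90% table, ratios of 0.108 (0.0887 to 0.130) and 0.111 (0.102 to 0.120). The polymerase epsilon subunits gave ratios of 3.81 and 4.32 for Pole3 and of 0.633 and 0.495 for Pole4. Top1, the topoisomerase that relaxes supercoils, was the other lower gene, at 0.360 and 0.297. The origin recognition genes Orc2 (2.30 and 2.08), Orc4 (1.32 and 1.16) and Orc6 (3.01 and 2.35) lay below most members, and Orc1, Orc5, Recql4 and Ticrr were under the minimum.

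Of 21 cycle regulators, 20 met the minimum, and 13 were at least 2-fold higher and 2 at least 2-fold lower in both tables. The shares over all genes were 24.7% higher and 12.9% lower, so the count of lower genes lies near the background. The cyclins Ccna2 and Ccne1 had ratios of 18.9 (7.31 to 69.8) and 39.9 (23.3 to 75.1), and of 9.01 (3.45 to 33.5) and 23.8 (13.3 to 47.9). Cdk4 had 6.94 and 7.0 and its cyclin Ccnd1 had 4.65 and 5.45. The transcription factor E2f1 had 9.42 (2.52 to 79.1, from 2 low UMIs) and 5.41 (3.63 to 8.43). The inhibitors Cdkn1a (0.302 and 0.306) and Cdkn1b (0.270 and 0.457) were the 2 lower genes, and Cdkn1a stood at 1396 CPM in low and 422 in deep barcodes of the 10% table. Cdkn1c went opposite ways in the tables, with ratios of 1.74 (1.25 to 2.48) and 0.229 (0.208 to 0.251).

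**Figure D3:**
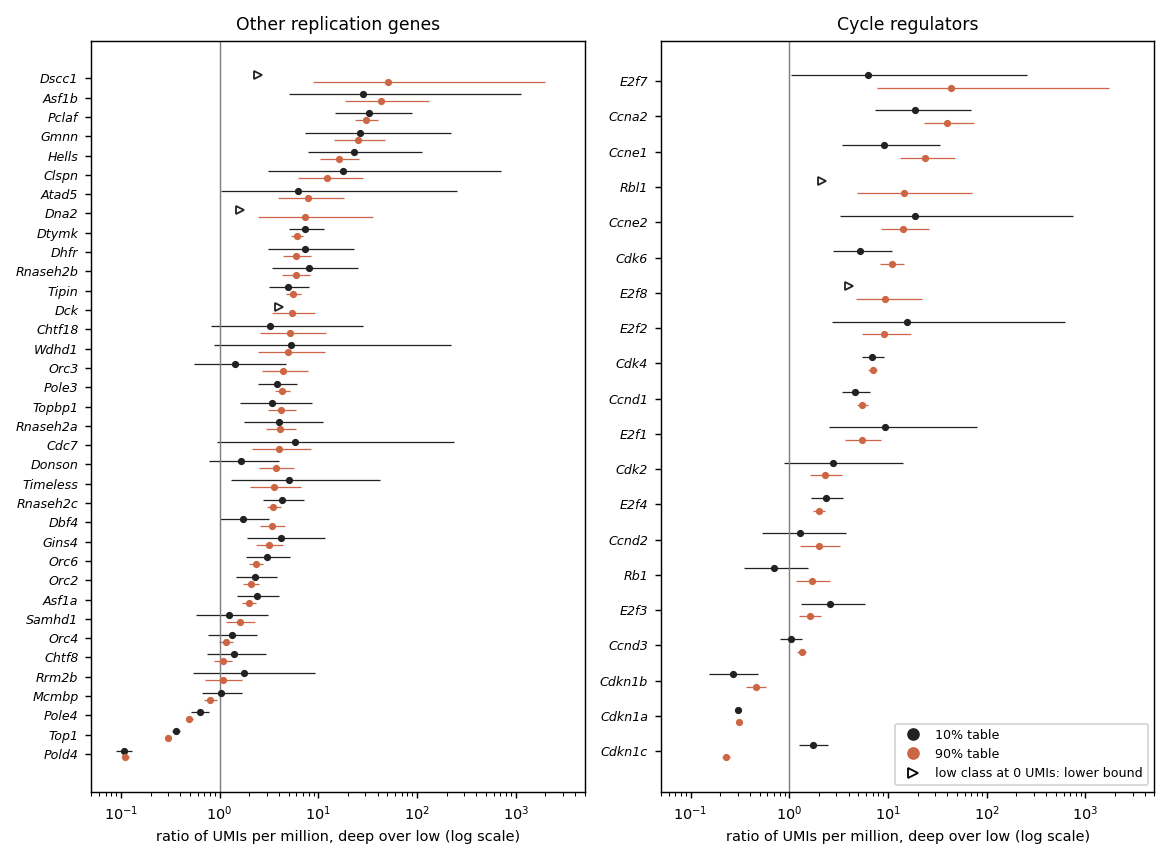
Ratio of CPM, deep over low barcodes (log axis), for 36 other replication genes (left) and 20 cycle regulators (right) in the 10% table (black) and the 90% table (orange), with 95% counting intervals and open triangles for lower bounds. Pold4, Top1, Cdkn1a and Cdkn1b lie left of 1 in both tables, and Cdkn1c lies on both sides.

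Co-variation was described within deep barcodes, each thinned to 20000 UMIs, for genes with a mean of at least 0.5 UMIs. In the 10% table, 18 members were kept and the Spearman correlation over 79 barcodes had a median of 0.159 over 153 pairs, beside 0.006 over all pairs of kept genes. In the 90% table, 26 members were kept and the median over 606 barcodes was 0.197 over 325 pairs, beside 0.0045 over all pairs. Of the member pairs, 90.8% were above 0 in the 10% table and 100% in the 90% table. The share of all pairs above 0 was not counted. The 5th to 95th percentile of all pairs ran from -0.200 to 0.217 in the 10% table. In the 90% table it ran from -0.104 to 0.119. The member median thus lay inside this range in the 10% table and above it in the 90% table. With a mean under 6 UMIs a barcode for every member, counting error limits these values, and the barcodes of a table share a library. The pairs with the highest lower value of the 2 tables were Dut with Pcna (0.449 and 0.474), Rrm2 with Tyms (0.558 and 0.418), Pcna with Tyms (0.374 and 0.361), Dut with Rrm2 (0.356 and 0.433) and Rpa3 with Rrm2 (0.444 and 0.356). Pairs of the same role had medians of 0.125 and 0.193 and pairs of different roles 0.177 and 0.197, so that role did not order the pairs. Rrm2 (0.703), Pcna (0.701) and Dut (0.607) had the highest correlation with the sum of the other members in the 90% table, and these genes also had the highest means, at 4.64, 2.27 and 5.33 UMIs. The median of the 90% table was 0.196 with shared barcodes left out. Among deep barcodes without a UMI of the 3 mitotic genes the median was 0.171 in the 90% table (7 members, 132 barcodes) and 0.0558 in the 10% table (6 members, 19 barcodes).

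**Figure D4:**
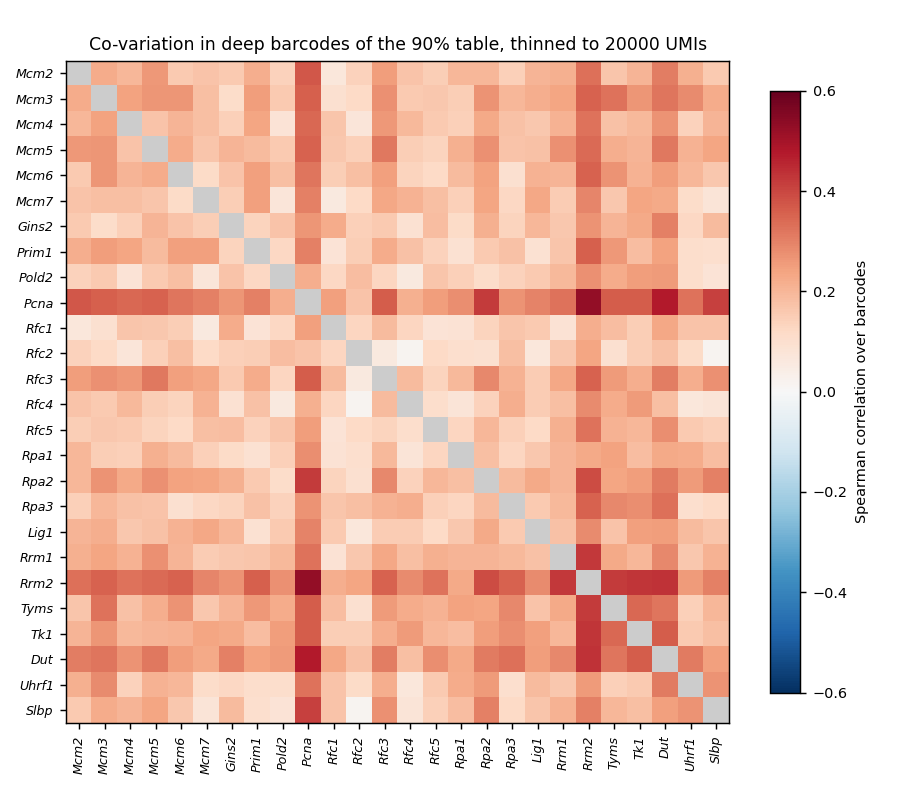
Spearman correlation over 606 deep barcodes of the 90% table, thinned to 20000 UMIs, for each pair of the 26 members kept (colour scale from -0.6 to 0.6, diagonal in grey). All 325 pairs are above 0, and the bands of Pcna, Rrm2 and Dut are the darkest.

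The summed members were then set against each of 3308 other genes kept in both tables, of which the median correlation was 0.0573 and 0.0340. Most alike by the lower of the 2 tables' values were Pclaf (0.660 and 0.695), the chromatin protein Hmgb2 (0.715 and 0.656), the fork protection factor Tipin (0.640 and 0.652), the tubulin Tuba1b (0.602 and 0.671) and Cdk1 (0.604 and 0.589). Ranbp1, Npm1, the histone variant H2afz and the predicted genes Gm4739 and Gm9800 followed, between 0.529 and 0.685. Least alike were the elongation factor Eef1a1 (-0.444 and -0.462), Gnas (-0.403 and -0.418), the ribosomal protein Rps19 (-0.417 and -0.397), Pnrc1 (-0.410 and -0.385) and the chaperone Cryab (-0.398 and -0.376).

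Long reads of the 10% aliquot gave 1475987 UMIs in the 167 low and 4628237 in the 79 deep barcodes, on 246 isoforms of the 43 genes. Of 42 members with at least 20 long-read UMIs, 38 were at least 2-fold higher in CPM in deep barcodes, beside 29.0% of all genes, with a median log2 ratio of 2.24 beside 0.24. The 4 others were Pola1 (1.5), Pold1 (1.86), Pold3 (1.49) and Slbp (1.36). Between 1 and 21 isoforms were counted for a gene, the most for Slbp, and 34 of the 246 bore the name of a reference transcript.

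Isoform shares could be compared for 17 members with at least 20 long-read UMIs in both classes. In 5 of these (29.4%) an isoform differed by at least 20 percentage points with an interval that left out 0, beside 27.7% of all 5756 genes compared, so this count lies near the background. The 5 genes were Mcm7, Pold3, Rfc2, Rfc5 and Rpa2. With shared barcodes left out, 11 members could be compared and 4 passed, without Rfc5, and the share over all genes was not computed in this setting. An isoform of Rfc2 with the introns of the reference transcript Rfc2-201 had 25.9% of the long-read UMIs of the gene in low and 51.1% in deep barcodes, a difference of 25.1 points (11.4 to 35.9). The isoforms of Rfc5 (75% and 52.6%) and Rpa2 (69.2% and 89.3%) had no entry in the isoform annotation used here.

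The largest difference was in Pold3. An isoform of 2 exons and 1850 bases at chr7:100112342-100121492 (-, mm10), which keeps intron 1 and ends in exon 3 of the 12 exons of the gene, had 11 of 24 long-read UMIs (45.8%) in low and 1 of 112 (0.893%) in deep barcodes. The difference was -44.9 points (-64.0 to -26.6). The other Pold3 isoforms together had 13 and 111 UMIs and were 2.72-fold higher in CPM (1.53 to 5.27) in deep barcodes, against 1.49-fold (0.951 to 2.42) for all Pold3 isoforms. The long-read ratio of all Pold3 isoforms thus includes a short isoform that was counted mainly in low barcodes.

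Mcm7 differed by where its isoforms began, among those with an entry in the isoform annotation. Those with the upstream start, at position 138171853 of chromosome 5 and just downstream of the printed Mcm7 window, had 47.8% of the UMIs of the gene in low and 71.8% in deep barcodes, a difference of 24.0 points (9.33 to 38.3). Those with the downstream start, at 138171017, had 37.0% and 17.7%, a difference of -19.2 points (-34.0 to -6.22). A start in between, at 138171241, had 6.52% and 7.76%. A further isoform, without an entry, had 8.70% and 2.66%. The window of a separate RefSeq start of Mcm7 near this last start holds no E2F-type match. For Slbp the isoform that starts at 33652574, next to the printed window, had 37.3% in low and 48.3% in deep barcodes, a difference of 11 points (3.37 to 18.2).

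**Figure D5:**
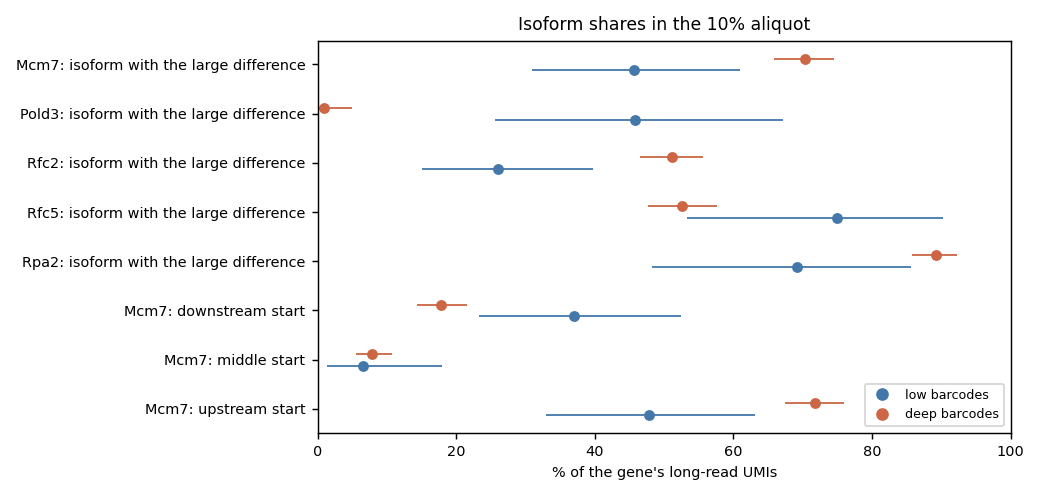
Share (%) of the gene's long-read UMIs in low (blue, 167 barcodes) and deep (red, 79 barcodes) barcodes of the 10% aliquot with 95% exact counting intervals, for the isoform with the large difference in each of 5 genes and for Mcm7 isoforms with an annotation entry by where they start. The Pold3 isoform lies at 45.8% in low and 0.893% in deep barcodes.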

How the data were processed

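The submitters' processing notes name Cell Ranger 1.3, minimap2 2.17 and GRCm38.p6. The deposited gene tables hold raw UMI counts that the authors made from short reads with scPipe, with barcodes not filtered to cells, and the isoform table holds long-read UMI counts, with reads basecalled by Guppy and isoforms built by FLAMES on mm10 with Gencode vM24. The deposited isoform annotation gives positions with no unit of abundance, and deposited read counts per barcode served only to join barcode sequences to columns. Isoforms with under 5 full-length reads had been dropped by the authors. Since UMIs were collapsed before deposit, read depth per UMI is unknown here.

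Symbols came from Gencode vM21 and left 39 and 58 identifiers of the 20830 and 26997 in the 10% and 90% tables without a name. UMIs were summed per class and table and given as CPM. Ratios have conditional exact intervals, shares Clopper-Pearson intervals and differences of shares Newcombe intervals, all at 95%, with Python 3.11.15, numpy 2.4.6, scipy 1.17.1 and pandas 2.3.3. No test was run, since there is 1 capture, and a ratio of at least 2 in both tables was the call. Genes needed 20 UMIs over both classes in each table. Doublets were not called. Some marker lists are not reported here. Values were given for the members with the largest and smallest ratio in each role and for the member under the minimum. The scripts were tested on simulated data. The members and lists were chosen with earlier results of these data known. Alternatives included edgeR 4.0.16 TMM scaling (R 4.3.3), and leaving out shared barcodes was chosen after seeing the data.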

Additional observations from a re-analysis of the deposited data

Results flagged for a closer look

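Some barcodes fall in neither class and held more member RNA than the low class, at 0.0284% and 0.0291% of UMIs in the 10% and 90% tables. Barcodes of 3000 to 15000 UMIs with a UMI of Top2a, Cdk1 or Mki67 had member shares of 0.121% (0.0987 to 0.147, 11 barcodes) and 0.157% (0.147 to 0.168, 72 barcodes). Barcodes between 15000 and 20000 UMIs had 0.108% (0.0948 to 0.124, 12 barcodes) and 0.103% (0.0953 to 0.110, 42 barcodes). Barcodes under 500 UMIs had 0.0966% (0.0712 to 0.128, 1435 barcodes) and 0.0758% (0.0596 to 0.0950, 390 barcodes), from 48 and 75 member UMIs. The inhibitor Cdkn1c had a ratio of 1.74 in the 10% table and 0.229 in the 90% table, on opposite sides of 1, and the difference between the tables was not tested.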

How the results depend on the processing

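The count of members at least 2-fold higher in both tables was 35 to 37 of those tested under every alternative of the short reads. The share over all genes was 22.2% to 25.1% in these settings, and 13.5% with no minimum count. Long reads, from the 10% aliquot alone and so not a count in both tables, gave 38, beside 29.0% of all genes. Of the alternatives for single members, Pole in the 10% table changed sign, with log2 ratios of -0.094 with low barcodes of 5000 to 15000 UMIs, -0.011 as a mean over barcodes and -0.059 with TMM scaling. Taking all barcodes of 3000 to 15000 UMIs as low moved 21 of 86 member ratios beyond their counting intervals, all in the 90% table, and gave a median log2 ratio of 2.47 in the 90% table, low shares of 0.0346% and 0.0383%, and a detection median of 1.08% in the 90% table. Leaving out shared barcodes gave a low share of 0.0234% in the 10% table and a deep share of 0.188% in the 90% table. Means over barcodes gave deep shares of 0.130% and 0.18%, and long reads gave 0.0766% in low and 0.279% in deep barcodes of the 10% aliquot. Without thinning, detection medians were 55.7% and 2.40% in deep and low barcodes of the 10% table and 59.2% and 1.14% in the 90% table. The isoform count was 1 with at least 50 UMIs (6 members compared) and 10 at a difference of 10 points (17 members compared). It was 0 among isoforms named after a reference transcript, where only 5 members could be compared. The share over all genes was not computed at these isoform settings, so these counts have no background beside them. The co-variation medians in the 10% and 90% tables were 0.324 and 0.309 as Pearson correlations of log2 values, 0.356 and 0.474 for members with a mean of at least 2 UMIs (only 2 and 3 members), 0.123 and 0.142 in barcodes with a mitotic UMI, and 0.0558 and 0.171 without. The cause of these shifts was not tested. No paired analysis was possible because each aliquot is 1 library and no test was run.

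Depth limits the members with under 5 low UMIs, whose upper bounds are wide. Of the 43 genes, 22 overlap another annotated gene, 12 of them on the same strand, and Pcna and Tyms have named pseudogenes (the part of this in the values was not tested).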
